A study of Mus musculus with 8 samples.

Results

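In the deposited list of genomic regions that differ in H3K27me3 between NNMT-overexpressing and control mouse fibroblasts, 1507 autosomal regions carried at least 4 times more signal in the set of libraries listed second than in the set listed first. H3K27me3 is trimethylation of lysine 27 of histone H3. The members were chosen by the deposited values themselves: the summed value of the second set plus 1, divided by that of the first set plus 1, had to reach 4, the second sum had to reach 100, and all 3 values of the second set had to exceed all 3 of the first. The authors' p was not used. The 1507 regions were 0.571% of the 263973 autosomal regions in the table. The same rule turned round, for regions higher in the first set, was met by 4339 regions, or 1.64%. The second set had the higher sum in 107751 autosomal regions, or 40.8%. Because the rule reads these values, the difference between the sets within the members is a description and was not tested.

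Both constructs were expressed in 3T3 cells, an immortalised line of mouse embryonic fibroblasts, and both groups were grown for 48 h in 10 µM methionine with 10% dialyzed serum. The first group carried a control construct and the other a construct overexpressing NNMT, nicotinamide N-methyltransferase, with 3 H3K27me3 libraries and 1 input library each. Chromatin was fixed with 1% formaldehyde, cut with micrococcal nuclease and precipitated with antibody clone C36B11. Which of the 2 sets of values belongs to NNMT is not stated in the sources used here. They are called set 1 and set 2 as listed, and a higher set 2 value is not read as a gain or loss with NNMT. Replicate numbers of the columns are unknown too, so values are printed as deposited, and a ratio's error is its span from the lowest to the highest of the 9 possible library pairs. The input libraries have no values in the table, so a difference in DNA dosage and a difference in the mark cannot be told apart. More marked cells and more mark per cell cannot be told apart either. The table lists only regions selected by the authors for a difference, so a gap in it says nothing about whether the mark is there, and the labelled cell type could not be checked against marker genes.

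H3K27me3 is written by Polycomb repressive complex 2, whose catalytic subunits are EZH1 and EZH2, and takes its methyl groups from S-adenosylmethionine. NNMT uses the same methyl donor to methylate nicotinamide. In fibroblasts and other differentiated cells the mark covers silent developmental genes, often from a CpG-rich start site, and also forms wide low domains over silent genes and gene-poor DNA.

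The members lay away from gene starts, so the few annotated starts that did fall under them are shown first. RefSeq start windows, from 250 bases before to 50 bases after an annotated start, were compared with the members on the build GRCm38.p6. Of 31396 windows, 9 overlapped a member, and 7 of these belonged to predicted genes or to genes known by a clone name. The 4 windows below are printed 5′ to 3′ on the gene's strand as examples of the starts under members, with CG counts from 0 to 9. Capitals mark each CG. Gm35815 lies at chr2:178680388-178680687 (plus strand), 1700123O21Rik at chr16:5975337-5975636 (plus), Gm31225 at chr8:116190503-116190802 (plus) and Lipf, the gene of gastric lipase, at chr19:33960998-33961297 (plus).
Gm35815: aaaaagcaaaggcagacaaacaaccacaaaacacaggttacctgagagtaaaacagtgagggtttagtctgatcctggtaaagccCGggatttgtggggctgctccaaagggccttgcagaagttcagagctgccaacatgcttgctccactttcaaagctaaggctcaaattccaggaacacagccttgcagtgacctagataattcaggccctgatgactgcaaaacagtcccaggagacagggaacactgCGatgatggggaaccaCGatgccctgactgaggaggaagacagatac
1700123O21Rik: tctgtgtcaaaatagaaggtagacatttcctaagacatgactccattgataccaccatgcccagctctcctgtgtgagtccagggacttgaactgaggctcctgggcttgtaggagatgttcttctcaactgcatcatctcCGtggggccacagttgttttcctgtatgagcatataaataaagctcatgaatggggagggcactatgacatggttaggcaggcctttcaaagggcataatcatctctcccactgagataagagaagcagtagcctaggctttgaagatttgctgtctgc
Gm31225: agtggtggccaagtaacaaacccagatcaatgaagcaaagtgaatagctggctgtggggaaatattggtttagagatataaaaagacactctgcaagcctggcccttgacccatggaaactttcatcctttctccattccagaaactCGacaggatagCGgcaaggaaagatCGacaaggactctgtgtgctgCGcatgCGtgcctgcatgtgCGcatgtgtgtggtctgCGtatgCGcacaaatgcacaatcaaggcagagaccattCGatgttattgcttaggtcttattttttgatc
Lipf: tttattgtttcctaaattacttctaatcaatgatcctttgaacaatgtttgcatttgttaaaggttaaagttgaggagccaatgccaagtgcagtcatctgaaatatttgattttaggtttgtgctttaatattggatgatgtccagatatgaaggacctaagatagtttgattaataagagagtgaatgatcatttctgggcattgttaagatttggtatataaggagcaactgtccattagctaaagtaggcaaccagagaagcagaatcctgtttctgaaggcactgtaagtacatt

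The Gm35815 window holds 3 CG pairs, the 1700123O21Rik window 1, the Gm31225 window 9 and the Lipf window 0. Over the 9 windows the median was 1 CG, against 7 over all 31396 windows, 4 over the 3742 windows under any listed region and 4 over the 42 windows under a region of the mirrored rule. A window with at least 3 CG pairs was found in 77.0% of all windows, and 1 with at least 9 in 46.2%. The member over the Gm35815 start went from 34, 45 and 38 in the set 1 libraries to 163, 227 and 162 in those of set 2. The member over the 1700123O21Rik start, inside the long gene Rbfox1, had 30, 39 and 20 against 271, 99 and 152. Over the Gm31225 start, between Maf and Dynlrb2, the values were 7, 27 and 22 against 150, 173 and 175. The member at Lipf was weaker, with 33, 9 and 5 against 56, 73 and 70, and its ratio of 4.17 ranged from 1.68 to 12.3 over the 9 pairs. The other named gene with its start window under a member was Lce3e, a late cornified envelope gene of the skin, with 5, 15 and 14 against 25, 65 and 53.

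Of 919 RefSeq microRNA hairpins compared, the hairpin of Mir6393 (chr15:87795850-87795943, minus strand), beyond the end of Tafa5, lay under a member. Hairpins under mirrored or other listed regions were not counted, so this overlap is not read as frequent or rare. Mir6393 is shown because it was the only hairpin of the 919 under a member. Its mature sequence is given with the seed, bases 2 to 8, in capitals.
mmu-miR-6393: cUGCCCACgaagcacacugagu

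The member over it, chr15:87795851-87796150, had 4, 13 and 0 in set 1 and 82, 71 and 46 in set 2. The ratio was 11.1, with pairs from 3.36 to 83.0, a width set by the 0 in set 1.

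Most members were short. Their median length was 300 bp, against 350 bp for the mirrored regions and 450 bp for all autosomal regions, and 83.0% were at most 500 bp long. Together they covered 0.626 Mb. The median summed value was 32 in set 1 and 189 in set 2. In set 1 the library medians were 12, 12 and 8, and in set 2 they were 61, 65 and 61. The third set 1 library was lowest: it had a value of 0 in 188 members, against 74 and 92 in the other set 1 libraries and 0 in each set 2 library. The members held 0.0607%, 0.0575% and 0.0452% of the summed autosomal values of the set 1 libraries and 0.374%, 0.382% and 0.375% of those of the set 2 libraries.

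**Figure D1:**
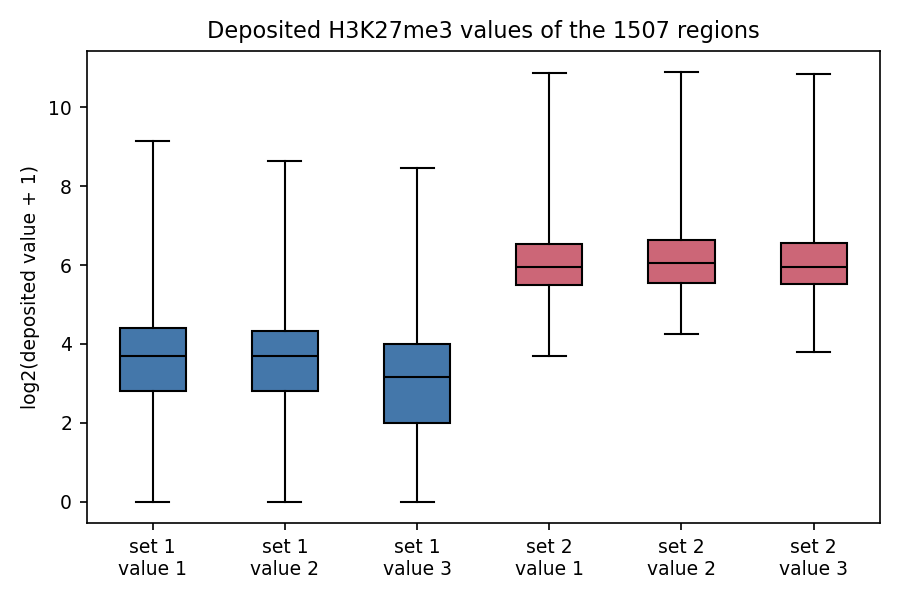
Deposited H3K27me3 values of the 1507 members in each of the 6 libraries, on a log2(value + 1) axis; boxes span the quartiles, the line is the median and whiskers reach the lowest and highest value. The set 2 medians of 61, 65 and 61 lie above those of set 1, 12, 12 and 8, as the rule requires.

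The median ratio was 5.18, close to the threshold, and 678 members (45.0%) had a ratio below 5. The mirrored regions had a median of 5.41 in their own direction, and the median set 2 to set 1 ratio of all autosomal regions was 0.752. A ratio of at least 10 was reached by 211 members (14.0%) and of at least 20 by 62. The median ratio was higher in the few long members, 8.65 in the 15 members over 2000 bp, against 5.24 in the 321 members of 150 to 200 bp. Single members did not follow length: the 12 largest ratios were in members of 150 to 450 bp, and the longest member, of 7250 bp, had 4.27. At the threshold, the member chr10:3590601-3591050 had 20, 29 and 14 against 117, 65 and 73, a ratio of 4, while chr8:18391101-18392150, with 85, 47 and 37 against 252, 223 and 203, fell just outside at 3.99. A further 3802 autosomal regions reached the ratio with a set 2 sum under 100, and 16 reached ratio and sum without the sets being separated. Leaving out a set 1 library raised the count, to 2311 for the library listed first, 2322 for the next and 1609 for the last. It was 2510 when set 2 was first scaled to the summed values of set 1, and 3175 regions then met the mirrored rule.

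The members were unevenly spread, and a few stretches held a large share of them. Chromosome 8 held 355 of them, or 2.17% of its listed regions, chromosome 16 held 147 (1.46%) and chromosome 15 held 131 (1.05%). On chromosome 6 there were 173 (0.857%). Chromosome 4 stood at the other end with 7 members (0.0466%), and it had the highest share of mirrored regions, 510 or 3.40%. In windows of 1 Mb, the 3 fullest windows held 330 members (21.9%) and the 10 fullest held 602 (39.9%), against 7.40% and 16.9% of the mirrored regions. The 2 fullest windows were neighbours on chromosome 8, from 115 to 116 Mb with 146 members and from 116 to 117 Mb with 102. The window from 87 to 88 Mb of chromosome 15 held 82, and that from 6 to 7 Mb of chromosome 16 held 61.

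**Figure D2:**
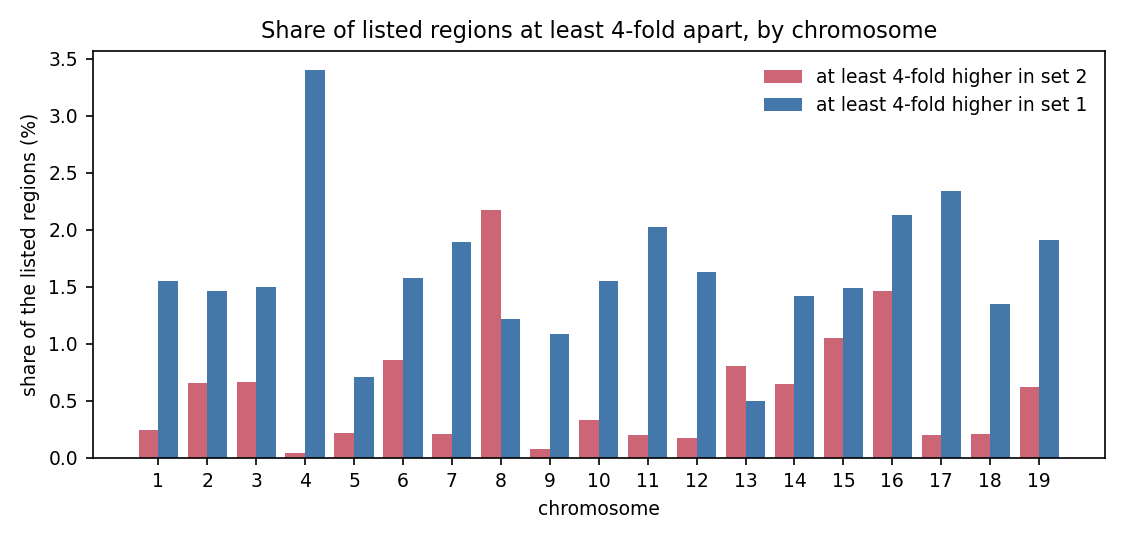
Share of the listed regions of each autosome, in %, that were at least 4-fold higher in set 2 (red) or, by the mirrored rule, in set 1 (blue). Chromosomes 8 and 13 had more set 2 than set 1 regions of this kind, 2.17% against 1.22% and 0.806% against 0.498%.

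Members linked at gaps of up to 50 kb formed 510 groups, and 1155 members (76.6%) had at least 1 partner. The mirrored regions, which are more numerous, were linked in 86.1% of cases. The largest group had 131 members. There were 56 groups of at least 5 members, called blocks here, which together held 901 members (59.8%). The 8 largest held 442 (29.3%). The 56 blocks contained 4512 listed regions, of which 3611 were not members, and all 4512 had the higher sum in set 2. Summed over every listed region inside, the set 2 to set 1 ratio of a block ran from 2.18 to 11.4, with a median of 3.39. Within 200 kb of a block's ends, 96.1% of 6521 listed regions had the higher sum in set 2, a region being counted for each block it flanks. The median ratio of these flanks was 2.47, and it was below the ratio inside in 50 of the 56 blocks and above it in 6. Blocks are drawn around members and end where members stop, so a higher ratio inside is partly fixed by the rule. In 2 blocks the flanks leaned to set 1: around chr15:44839801-44913750 the ratio was 0.576 outside and 2.22 inside, and around chr2:12693551-12708550 it was 0.979 outside and 4.17 inside.

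Away from the members the lean to set 2 declined. Among autosomal regions that were not members, those within 1 kb of a member were higher in set 2 in 99.9% of cases, with a median ratio of 3.25. At 10 to 50 kb the share was 97.0% and the median ratio 2.24, and at 50 to 200 kb they were 86.5% and 1.82. At 200 to 1000 kb the directions were nearly even, with 50.6% higher in set 2, and beyond 1000 kb 28.7% were. Every listed region within 100 kb leaned to set 2 for 88.2% of the members, while 64.7% of the mirrored regions had all their neighbours leaning to set 1. The difference between these shares was not tested.

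**Figure D3:**
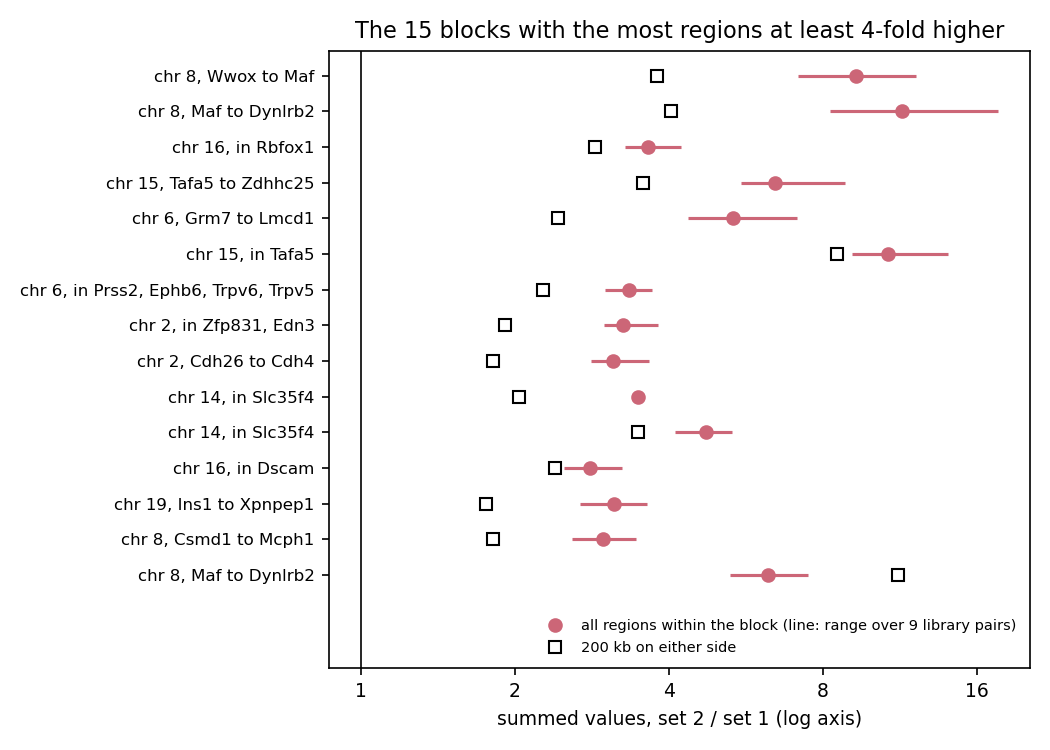
Set 2 to set 1 ratio of summed values, on a log axis, in the 15 blocks with the most members (red points, lines spanning the 9 library pairs) and in the 200 kb on either side (open squares). The ratio inside is above that of the flanks in every block drawn except the smaller block from Maf to Dynlrb2, 6.26 against 11.2, whose flank takes in the larger block beside it. Blocks are drawn around members, so a higher ratio inside is partly fixed by the rule.

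The densest concentration lay around Maf, the gene of a basic leucine zipper transcription factor of lens, bone and immune cells. Between the end of Wwox, an oxidoreductase gene, and the start of Dynlrb2, a dynein light chain gene, 1152 kb held 247 members (16.4% of all). All 745 listed regions of this interval had the higher sum in set 2. Their values summed to 6316, 5349 and 4103 in set 1 and to 42391, 43369 and 42021 in set 2, a ratio of 8.10 with pairs from 6.65 to 10.6. The lowest set 2 library was thus over 6 times the highest set 1 library.

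The interval fell into 2 main blocks, with Maf itself in the gap. The first, chr8:115367401-115674200, ended 29.1 kb before Maf and held 131 members among 353 listed regions, at a ratio of 9.29 (7.16 to 12.2). Its strongest member by set 2 sum, chr8:115609251-115614200, is 4950 bp long and 89.1 kb from Maf. It had 147, 103 and 135 in set 1 and 1247, 1482 and 1375 in set 2, a ratio of 10.6 (8.43 to 14.3). In the same block, chr8:115591901-115594250 had 66, 31 and 30 against 623, 641 and 602.

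The second block, chr8:116124201-116335050, began 417 kb after Maf and held 90 members among 215 listed regions. It had the highest ratio of the 56 blocks, 11.4 (8.26 to 17.6). Its member with the largest set 2 sum, chr8:116240651-116243950, had 121, 66 and 69 against 846, 1003 and 920. At chr8:116191951-116194550 the set 1 values were lower still, 22, 34 and 11, against 635, 715 and 675, and the ratio was 29.8 (18.2 to 59.7). The region chr8:116173251-116175700 had 105, 53 and 18 against 690, 572 and 606, with the set 1 libraries spread by more than 5 times.

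No listed region overlapped the Maf span. The nearest lay 13.2 kb before it and 126 kb after it, and neither was a member. In bins of 50 kb from the middle of Maf, the ratio was 8.70 to 11.8 in the bins from 50 to 300 kb on the Wwox side and 4.65 in the 50 kb next to Maf. On the Dynlrb2 side it reached 13.1 at 450 to 500 kb and was 2.90 at 750 to 800 kb. Outside the interval there were few listed regions on the Wwox side, 4 in the 913 kb Wwox span with 0 members. The Dynlrb2 and Cdyl2 spans on the other side held 29 listed regions, all higher in set 2 at a ratio of 2.49, and 0 members.

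This interval also held most of the emptiest members. Of the 12 members with the largest ratios, 8 were on chromosome 8 between Wwox and Dynlrb2, 2 in Tafa5, 1 in Ctnna3 and 1 near Lmcd1. In 5 of them every set 1 value was listed at 0, and in 11 the set 1 sum was at most 3, so no fold is given. The region chr8:115492751-115493050 was listed at 0 in all 3 set 1 libraries and had 59, 74 and 82 in set 2. The region chr8:116131451-116131900 had 0, 1 and 3 against 102, 122 and 108. None of these 12 was among the 12 members with the largest set 2 sums.

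The second centre was Tafa5 on chromosome 15, which encodes a small secreted chemokine-like protein expressed mainly in brain. All 28 members in the gene lay in its first part, 4.03 to 68.7 kb from its 5′ end in a span of 215 kb. No region of either direction was listed in the last 100 kb of the span, so no member could be found there. All 78 listed regions of the gene were higher in set 2, with a ratio of 11.3 (9.85 to 13.4). The largest member, chr15:87546251-87550250, had 96, 90 and 83 in set 1 and 1146, 1343 and 1254 in set 2, a ratio of 13.9 (11.8 to 16) with little spread within either set.

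The members continued past the gene's other end towards Zdhhc25, a palmitoyltransferase gene, with 53 in 841 kb. The block chr15:87789301-87973000, which includes the Mir6393 hairpin shown above, held 42 of them at a ratio of 6.46 (5.54 to 8.85). Its largest member, chr15:87809151-87811700, had 82, 122 and 38 against 697, 752 and 763. In bins of 50 kb from the end of Tafa5 the ratio was 9.44 in the first, 7.56 in the second, 4.07 at 200 to 250 kb, 2.63 at 350 to 400 kb and 1.77 at 750 to 800 kb. The second set stayed higher in 422 of the 423 listed regions of the interval while the ratio fell.

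**Figure D4:**
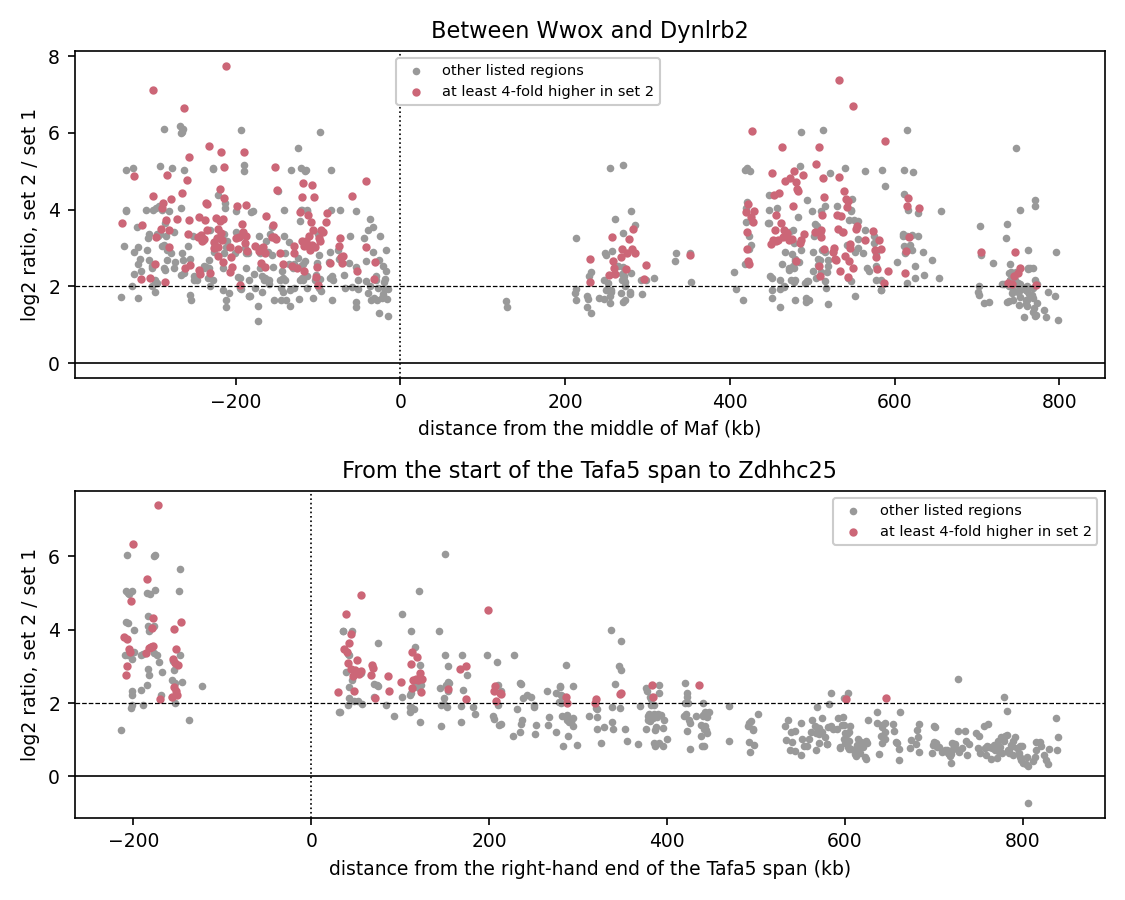
Log2 ratio of set 2 to set 1 for each listed region between Wwox and Dynlrb2, by distance from the middle of Maf (top), and from the start of the Tafa5 span to Zdhhc25, by distance from the end of that span (bottom); red points are members, grey points other listed regions, and the dashed line is the 4-fold threshold. Grey points above the line have a set 2 sum under 100 or sets that overlap; 1 region of the lower panel lies below 0.

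Other members outside genes were also gathered in wide intervals. The 1028 members outside every named gene span fell into 239 intervals between genes, and the 10 intervals with the most held 474 (46.1%). The 1028 include the 247 members between Wwox and Dynlrb2 and the 53 between Tafa5 and Zdhhc25 described above. Intervals of at least 500 kb held 632 (61.5%), against 15.6% of the mirrored regions between genes, 24.1% of all autosomal regions between genes and 36.6% of those higher in set 2, a difference that was not tested. Between Grm7, a metabotropic glutamate receptor gene, and Lmcd1, a LIM domain gene, 40 members sat in 1 block of 93.5 kb, chr6:112111951-112205450. All 112 listed regions of that interval were higher in set 2, at a ratio of 5.22 (4.24 to 6.91). The block's largest member, chr6:112201551-112205450, had 173, 183 and 152 against 957, 971 and 874. A second, chr6:112128701-112131300, had 144, 143 and 122 against 792, 852 and 556, where the third set 2 library was the lowest.

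Some of these intervals border genes of developmental transcription factors. How many of the 239 intervals do was not counted, so the examples here are not read as a theme. On either side of Irx1, an Iroquois homeobox gene, there were 27 members towards Adamts16 and 25 towards Irx2, with ratios of 2.11 (1.97 to 2.29) and 3.08 (2.79 to 3.35), and no listed region overlapped Irx1 itself. Between Sall1 and Tox3 there were 9, at 2.38. The interval between the cadherin genes Cdh26 and Cdh4 held 24 members, that between Ins1, an insulin gene, and Xpnpep1 held 18, and that between Csmd1 and Mcph1 held 17. A long member at chr2:12693551-12697150, 227 kb from the nearest named gene, Pter, was the largest of 5 in its block and had 238, 262 and 166 against 1073, 1027 and 978.

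Not all intervals with members were raised throughout. Between Trib1 and Lratd2 on chromosome 15 there were 12 members, but 196 of 414 listed regions were higher in set 1 and the summed ratio was 1.03 (0.967 to 1.12). Between Tle4 and Psat1, with 12 members, the ratio was 1.40.

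Within genes, the members fell mostly in long ones. A member overlapped the span, extended by 2 kb, of 158 of 19494 named autosomal genes (0.811%), or 2.44% of the 6479 named genes with any listed region. The median span of these carriers was 239 kb, against 18.3 kb for all named genes, and 90 of them (57.0%) spanned at least 200 kb, as did 4.80% of all named genes. Genes carrying a mirrored region had a median span of 55.9 kb, and those carrying any region higher in set 2 had 29.6 kb. A long gene has more room for a region of any kind. Of the members in a gene span, 77.2% lay in a span of at least 200 kb. The share was 38.8% of the mirrored, 36.8% of all autosomal and 50.1% of the set 2-higher regions in genes, and the difference was not tested. Of the carriers, 88 had exactly 1 member, 23 had at least 5 and 9 had at least 10. Summed over all their listed regions, 152 of the 158 were higher in set 2, and in 102 every listed region was. The sums include the members that made each gene a carrier, so this lean is partly fixed by the rule.

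Rbfox1, the gene of a neuronal splicing regulator, carried the most members, 70 in a span of 1528 kb. They lay 88.0 to 1054 kb from its 5′ end, and 57 belonged to 1 block, chr16:5972601-6176400. All 428 listed regions of the gene were higher in set 2, at a ratio of 3.43 (3.11 to 4.01). The longest of all members, chr16:5986401-5993650, is 7250 bp long, and its values were 569, 394 and 351 against 1882, 1893 and 1834. It also had the largest set 2 sum, with a ratio of 4.27 (3.22 to 5.38), near the threshold.

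Other genes of neurons and cell adhesion followed, with lower ratios over the whole gene. Dscam, the gene of a neuronal adhesion molecule, had 23 members among 372 listed regions at a ratio of 2.61 (2.38 to 2.93). Its strongest member had 60, 55 and 78 against 257, 295 and 260. Grik1, a kainate receptor gene, had 11 members and a ratio of 3.40 (2.97 to 3.70). Its member chr16:88284301-88287050 had 164, 101 and 94 against 594, 692 and 586. Dchs2, a large cadherin gene, had 11 members, the strongest with 53, 64 and 53 against 325, 322 and 316. In each of these 3 genes every listed region was higher in set 2.

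The remaining long genes with the most members were outside the neuronal lists. Slc35f4, a gene of the solute carrier family 35, had 22 members in a ratio of 3.24 (3.10 to 3.37), the strongest with 71, 54 and 82 against 312, 359 and 322. A further 17 members lay between its 5′ end and Armh4. Zmat4, a zinc finger gene, had 19 members at 2.74 (2.38 to 3.28), and Creb5, a gene of the CREB family of transcription factors, had 19 at 3.24 (2.88 to 3.62). The strongest member of Zmat4 had 166, 84 and 109 against 501, 509 and 443, and that of Creb5 had 35, 28 and 50 against 155, 145 and 158. L3mbtl4, a gene of an MBT-domain chromatin protein, had 8 members but a ratio of 1.96 over its 218 listed regions. Its strongest member had 81, 30 and 15 against 229, 186 and 113, and the pairs ran from 1.39 to 14.4.

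Some long carriers had members but were little raised as a whole. Ctnna3, an alpha-catenin gene with Lrrtm3 nested inside it, carried 8, but 27 of its 91 listed regions were higher in set 1 and its ratio was 1.17 (1.11 to 1.25). Over Lrrtm3 alone, a synaptic adhesion gene with 5 members, all 22 listed regions were higher in set 2, at 6.36 (5.57 to 8.71). Sorcs3, with 8 members, had a ratio of 1.51. Gabrb2, a GABA receptor gene also with 8 members, was by contrast raised throughout, with a ratio of 3.38 (2.76 to 4.33) and no listed region higher in set 1.

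A few compact genes carried members too. Edn3, the gene of endothelin 3, a ligand needed by neural crest cells, held 5 members at 3.76 (2.94 to 4.57), in a block that reached to Zfp831. Its strongest had 73, 52 and 68 against 290, 283 and 272. Bmp2, a bone morphogenetic protein gene, held 2, the stronger with 24, 30 and 30 against 112, 121 and 136. A block on chromosome 6, chr6:41497251-41673300, ran from the trypsin gene Prss2 over Ephb6 to the epithelial calcium channel genes Trpv6 and Trpv5, with 28 members and a ratio of 3.35 (3.00 to 3.71). Its strongest member, in Trpv5, had 53, 88 and 36 against 242, 304 and 291.

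The carriers were compared with 20 gene lists, beside the 0.811% of all named genes. Of their 863 symbols 37 carried a member, and 10 of the 20 lists had no carrier. Among synaptic adhesion and neuronal RNA-binding genes, 9 of 47 (19.1%) carried a member (Cntn1, Csmd1, Dscam, Lrrtm3, Lsamp, Ntm, Rbfox1, Tenm2 and Tenm3). Among neurotransmitter receptors 7 of 55 (12.7%) did, among them Chrm3, Gabrb2, Grik1, Grin2a and Grm8, among ion channels 6 of 61 (9.84%) and among receptor tyrosine kinases 4 of 51 (Alk, Epha6, Fgfr3 and Ntrk3). Of the cadherins and protocadherins 3 of 39 carried a member, of the axon guidance genes 2 of 48, and of the 5 TAFA genes 2, Tafa5 and Tafa1. A mirrored region was carried by 7 of the ion channels, 5 of the neurotransmitter receptors and 2 of the cadherins and protocadherins. It was carried by 1 synaptic adhesion or neuronal RNA-binding gene, 1 axon guidance gene, and 0 receptor tyrosine kinases and TAFA genes. Of all 19494 named genes 534 carried a mirrored region, so carriage by ion channel and receptor genes is not particular to the members. Many genes of these lists are long, and no correction for length was made.

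Classic Polycomb targets were looked at in the same way. None of 39 Hox genes and 2 of 126 other developmental transcription factor genes (1.59%) carried a member, against 0.811% of all named genes. At that share a list of such size would often hold none, so a list without a carrier is not read as depleted. No list was compared with another by a test. Zfhx3, which encodes a zinc finger homeobox factor, had 1, with 12, 11 and 6 against 58, 70 and 32. A listed region of either direction was carried by 28 of the Hox genes and 79 of the other factor genes. None of 47 Wnt pathway genes, 20 fibroblast growth factors, 38 imprinted genes, 72 collagen and matrix genes or 30 genes of Polycomb and H3K27 enzymes carried 1. Among 35 genes for enzymes of the methionine cycle and of NAD and methyl donor supply, Kynu, which encodes kynureninase of NAD synthesis from tryptophan, was the carrier. Its member had 9, 24 and 9 against 67, 109 and 76. Marker genes of endothelial (15), epithelial (26), immune and blood (24) and muscle, bone, cartilage and fat cells (34) held 0 carriers.

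By position, the members lay farther from genes than the table as a whole. In all, 488 members (32.4%) were within 2 kb of a named gene span, against 44.3% of the mirrored regions, 40.4% of all autosomal regions and 39.3% of all regions higher in set 2. More than 100 kb from any named gene were 658 members (43.7%), against 13.04% of the mirrored, 15.6% of all and 22.2% of the set 2-higher regions. Outside gene spans the median distance to the nearest named gene was 138 kb for the members and 43.4 kb for the mirrored regions. No named or predicted feature of any kind was annotated under 799 members (53.0%), and 236 lay in predicted long noncoding RNA genes.

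Gene starts were more distant still. The RefSeq start windows used here hold none for chromosome 18, so its 16 members were left out of this comparison. The median distance from the other 1491 members to the nearest named gene's start was 231 kb, against 56.0 kb for the mirrored regions, 55.4 kb for all regions and 84.2 kb for all regions higher in set 2. Within 2 kb of a start were 12 members (0.805%), against 3.54%, 3.52% and 2.64%. Overlap with a start window was found for 9 members (0.604%), against 0.968%, 1.41% and 1.07% in the same order. None of these differences was tested, since neighbouring regions share blocks and are not independent. Without the interval around Maf, the share within 2 kb of a gene was 38.7%, the share over 100 kb from any gene 37.0% and the median distance to a start 169 kb. Without all 56 blocks, the remaining 606 members gave 38.3%, 34.7% and 157 kb. The share within 2 kb of a gene thus came near the 40.4% of all autosomal regions, while the distances stayed longer. Both exclusions were chosen after seeing the data.

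**Figure D5:**
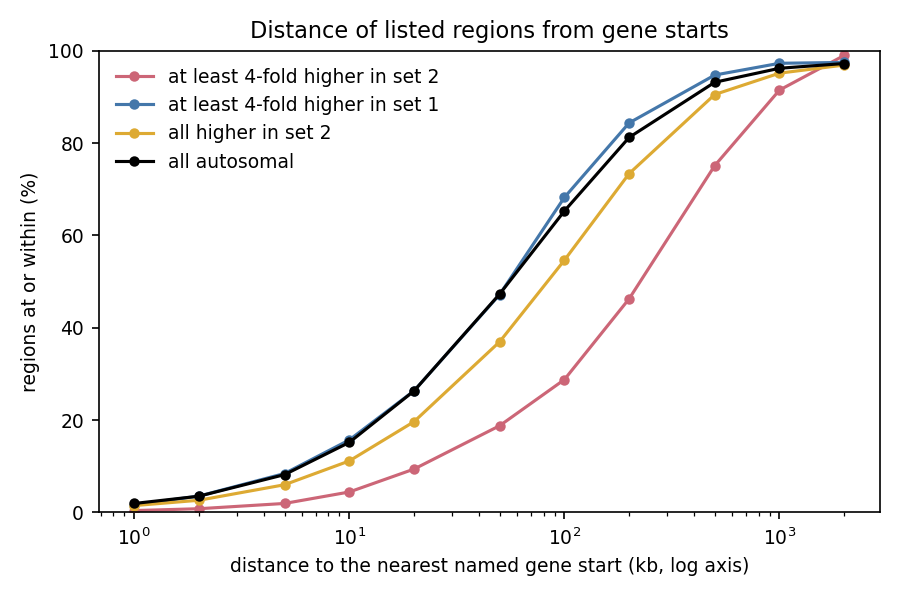
Cumulative share of regions, in %, within a given distance of the nearest named gene's start, on a log distance axis in kb, for members (red), mirrored regions (blue), all regions higher in set 2 (yellow) and all autosomal regions (black), without chromosome 18. At 100 kb the curves stand at 28.8% for the members and 68.2% for the mirrored regions.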

How the data were processed

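H3K27me3 was profiled in 6 immunoprecipitated libraries, 3 per construct. The authors deposited 1 table without a header. The submitters' processing notes name the build GRCm38 and the tools BWA 0.7.17, Trimmomatic 0.36 and CASAVA. The sources used here do not say how regions were called and normalized or whether inputs were subtracted.

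Each deposited row holds 6 values and a −log10 p of the authors. The 6 deposited values are whole numbers of a score that may be rescaled and rounded, so no count model was fitted. Sequencing depth is unknown, and no interval that needs it is given. With unlabelled libraries and 3 against 3, an exact test could not go below 0.1.

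The rule was applied to autosomes with Python 3.11.15, pandas 2.3.3 and numpy 2.4.6. A region's ratio has 1 added to both sums; a block's, interval's or gene's is the plain ratio of sums over all its listed regions. Gene spans, start windows and microRNAs came from RefSeq, GRCm38.p6; named genes are protein-coding or long noncoding without Gm, Rik or LOC symbols. A gene carries a member within 2 kb. The named members were the 12 with the largest ratio, the 12 with the largest set 2 sum, the 5 longest, the 8 largest blocks, the 10 genes with most members, up to 3 carriers per list and those at gene starts; intervals, and other carriers named, were chosen after their values were seen. A few genes are not reported here. The members and the gene lists were chosen with earlier results of these data known.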

Additional observations from a re-analysis of the deposited data

How the results depend on the processing

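The number of members followed the thresholds. From 1507 it went to 3787 with a ratio of at least 3, 547 with at least 6, 3358 with a set 2 sum of at least 50, 673 with at least 200, 955 with 10 added to each sum in place of 1, and 945 after merging regions within 500 bp. It went to 2510 with the sets scaled to equal sums, which shifted every log2 ratio by 0.19 and left 41.3% of all autosomal regions higher in set 2, and ran from 1513 to 2322 when 1 value was left out. Without the separation it was 1523. With the authors' p under 0.01 it stayed at 1507, but every member already had a p below that, so this setting is no separate check.

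The share near a named gene, 32.4% (95% exact binomial interval 30.0 to 34.8), was 35.4% with 10 kb in place of 2 kb, 37.4% and 24.5% at ratios of 3 and 6, and 35.4% with equal sums. In alternatives chosen after seeing the data it was 38.7% without the interval around Maf, 36.6% without the 8 largest blocks and 38.3% without the 56 blocks. The number of carrier genes, 158, was 338 and 52 at ratios of 3 and 6, 68 with a set 2 sum of at least 200, and 236 with equal sums. The share with a partner, 76.6% (74.4 to 78.8), was 60.1% and 87.9% at gaps of 10 and 200 kb, 82.1% and 79.9% at ratios of 3 and 6, 79.3% at a sum of 200 and 79.6% with equal sums. The cause of these shifts was not tested beyond the change of threshold itself. The log2 ratios of the 12 members with the largest set 2 sums moved by −0.43 to 0.72 over 96 alternatives. No paired analysis was possible because the columns carry no library names or replicate numbers. The binomial intervals on shares cover counting error only. They treat members as independent, which neighbouring members are not, so they understate the uncertainty of the shares. Low set 1 values limit the precision of the largest ratios.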

Other observations

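The sex chromosomes, which the rule leaves out, hold 1995 listed regions, and 5 of them met the same thresholds.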
